A study of Mus musculus with 12 samples.

Results

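Messenger RNA that sedimented with polysomes was compared with total RNA (input) in vehicle-treated adipose stromal cells, in 5 of the 11 distinct libraries of the series. The libraries were chosen by their labels alone. All were made from the stromal vascular fraction (SVF), the cells other than fat cells that collagenase frees from adipose tissue, of the epididymal white adipose tissue (eWAT) of male Lepob/Lepob mice, a leptin-deficient and obese strain, at 12 weeks of age. In culture the cells received an adipogenic mixture of 0.5 mM IBMX, 1 µM dexamethasone and 5 µg/mL insulin with DMSO as vehicle (Veh) for 2 days, then insulin with DMSO for 2 days, and at day 4 fresh medium for 1 hour. Cycloheximide, which freezes ribosomes on mRNA, was present at 100 µg/mL for the last 5 minutes. The polysome group (eWAT, Veh, n = 3 libraries) was taken as RNA of the pooled polysome fractions of a sucrose gradient, in the paper those with more than 3 ribosomes. The input group (input, Veh) was taken as total RNA. The protocol names both kinds of RNA, but the titles of the first group give tissue and treatment only, so its identity rests on the other group being titled input. Input Veh was deposited 3 times, but replicates 2 and 3 did not differ in any of 117135 transcripts, less than sampling noise allows, and count here as 1 sample (n = 2). The Rosi groups (3 polysome and 3 input libraries), given 1 µM rosiglitazone in place of vehicle, shared the estimate of spread and were otherwise set beside the vehicle values. The labels call the replicates biological but do not say how many mice went into each, so the p-values measure the spread between these cultures, whose relation to mice is not stated.

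In a sucrose gradient an mRNA that carries several ribosomes sinks below free mRNA and single ribosomes. The share of an mRNA in the polysome fractions, relative to its share in total RNA, is therefore widely used as a readout of how heavily it is translated. Some mRNAs carry signals that set this share. Iron regulatory proteins bind a stem-loop, the iron-responsive element (IRE), and in the 5′ UTR of ferritin mRNA this blocks initiation when iron is scarce, whereas in the 3′ UTR of the transferrin receptor mRNA it protects the transcript from decay. The mRNAs of ribosomal proteins and elongation factors start with a pyrimidine tract (TOP mRNAs) that ties them to growth signals, and mRNAs such as Atf4 carry short upstream open reading frames (uORFs) that hold back the main frame until initiation is limited by stress.

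Stem-loops found in iron-handling mRNAs are shown because ferritin mRNA was among the mRNAs furthest below input. The search was for a C, 5 bases, the 6-base loop CAGTGN and 5 bases able to pair with the first 5 (A-T, G-C or G-T), read on the transcript strand of the leading transcript of each gene in GENCODE M21 (mm10). The loop is in capitals, with 5 flanking bases on each side of the motif.
Ftl1, 5′ UTR, chr7:45459780-45459806, minus strand: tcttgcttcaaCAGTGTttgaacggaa
Ftl1-ps1, 5′ UTR, chr13:74406429-74406455, plus strand: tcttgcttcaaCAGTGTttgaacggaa
Fth1, 5′ UTR, chr19:9982733-9982759, plus strand: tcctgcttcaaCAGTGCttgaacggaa
Slc40a1, 5′ UTR, chr1:45925466-45925492, minus strand: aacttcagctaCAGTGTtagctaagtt
Tfrc, 3′ UTR, the first of 4 sites, chr16:32631220-32631246, plus strand: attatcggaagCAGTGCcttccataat
Among genes tested, 20 of 12748 with a 5′ UTR long enough (0.157%) and 85 of 13167 with a 3′ UTR long enough (0.646%) held a match. A match is a description of the letters and not a measured site. Ftl1 and Ftl1-ps1, a locus that the annotation lists as protein coding and that resembles Ftl1, had the same 27 bases, so reads may be split between them.

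The 5 libraries held 17446517 to 20963871 estimated reads each. Values for a gene are CPM, its counts relative to the library size after TMM scaling, and log2 fold changes are polysome over input from edgeR's quasi-likelihood test. Because each library is scaled to its own total, a log2 fold change is relative to the other mRNAs, with a median of 0.02 over all genes tested. In a principal component analysis of all 11 libraries the first component (50.2% of the variance) placed polysome Veh replicate 1 at -53.1 and replicates 2 and 3 at -27.2 and -21.4, with input Veh at 39 and 40.4. The libraries also differed in base composition. The estimated reads had a mean transcript GC content of 49.3, 50 and 50.2% in the 3 polysome libraries and 51.5 and 51.6% in the 2 input libraries. The 8 macrophage markers summed to 15457 to 20594 CPM in the polysome libraries and 15494 and 17752 CPM in the input libraries, and the 7 adipocyte markers tested summed to 527 to 649 CPM and to 460 and 529 CPM. Of the latter, Fabp4 was at 65.4 to 162 CPM in the 5 libraries, and Adipoq, the adipocyte hormone adiponectin, at 0.16 to 1.2 CPM. Of 6 epididymal markers 2 passed the filter on low counts, and one of them, Crisp1, was measured at 256, 156 and 163 CPM in the polysome libraries and 124 and 112 CPM in input. The part of epididymal cells in the results was not tested. For a level in these bulk samples, fewer cells of a type and less RNA per cell cannot be told apart. The paper describes input as taken before fractionation, but whether both groups held the same mix of cells was not tested.

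Polysome and input RNA differed across about as many genes upward as downward when any size was counted, and more genes lay far below input than far above it. Of 14042 genes tested, 3472 (24.7%) were higher in polysomes and 3457 (24.6%) lower at an adjusted p under 0.05. With a difference over 2-fold required as well, 420 genes (2.99%) were higher and 938 (6.68%) lower, and these are the calls meant below by over 2-fold. The polysome and input libraries did not overlap for 64% of all genes tested. The count of higher genes leaned on polysome Veh replicate 1, without which 236 were higher and 759 lower. It also depended on scaling. Library totals without TMM factors, which moved the median of all genes to 0.16, gave 820 higher and 649 lower, so that the share of calls that were higher went from 30.9 to 55.8%, and limma on log2(TPM + 1) gave 386 and 458 (45.7% higher).

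Ftl1-ps1 and Ftl1, ferritin light chain, were furthest below input among the 12 lowest genes that had a gene name, no overlap between groups and a mean log2 CPM of at least 1. Ftl1 (chr7:45457944-45459884) lay at 827, 1287 and 1121 CPM in the 3 polysome libraries and at 6297 and 7850.4 CPM in the 2 input libraries, with no overlap. The difference was -2.71 on the log2 scale (SE 0.16, adjusted p = 1.1e-07), a 6.56-fold lower level in polysomes, and Ftl1-ps1, at 1.2, 1.5 and 0.889 CPM against 7.46 and 9.7, differed by -2.83 on the log2 scale (SE 0.38, adjusted p = 2.9e-05). The genes at this end mostly coded for long proteins (9 of the 12 for 830 residues or more). Tln1, which encodes talin, the adaptor between integrins and actin, measured 136, 179.8 and 198.7 CPM in polysomes and 813 and 803 CPM in input (log2 fold change -2.24, SE 0.14, adjusted p = 1.1e-07). Fasn, the multifunctional enzyme that builds fatty acids, measured 29.5, 34.2 and 46 CPM against 167 and 145 (-2.09, SE 0.17, adjusted p = 4.5e-07). Every polysome library of both genes was below every input library. Cad, the trifunctional enzyme that starts pyrimidine synthesis, differed by -2.16 on the log2 scale (SE 0.16, adjusted p = 2.2e-07). The one-carbon enzyme Aldh1l1 (-2.09, SE 0.19, adjusted p = 1.2e-06), the transsulfuration enzyme Cbs (-2.08, SE 0.16, adjusted p = 3.6e-07), the cadherin Cdh16 (-2.19, SE 0.17, adjusted p = 3.6e-07) and the nonmuscle myosin Myh14 (-2.07, SE 0.27, adjusted p = 2.2e-05) followed. The remaining 3 were gamma-protocadherins (Pcdhgb4 -2.57, Pcdhgc5 -2.22, Pcdhgb6 -2.10), cell adhesion genes that share their last exons, so the split of reads among them is uncertain.

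At the other end the differences were smaller, and the 12 genes named by the same rule coded for 532 residues or fewer. Dynlt3, a light chain of the dynein motor, measured 459, 347 and 378 CPM in polysomes and 125 and 152 CPM in input (log2 fold change 1.51, SE 0.17, adjusted p = 5.5e-06). Slc35a1, which carries CMP-sialic acid into the Golgi, measured 50, 40.2 and 43.4 CPM against 15.2 and 16.6 (1.48, SE 0.13, adjusted p = 8.3e-07). Bmpr1a, a type I receptor for bone morphogenetic proteins, measured 143, 105 and 120.4 CPM against 48.1 and 48 (1.35, SE 0.14, adjusted p = 2.8e-06). The lowest polysome library of each stood above the highest input library. Cfdp1 (1.43, SE 0.14, adjusted p = 2.3e-06), the TFIID subunit Taf13 (1.44, SE 0.15, adjusted p = 3.2e-06), Gemin6 of the SMN complex that assembles spliceosomal particles (1.48, SE 0.17, adjusted p = 6.7e-06), the threonine aspartase Tasp1 (1.39, SE 0.19, adjusted p = 2.9e-05) and the mitochondrial outer membrane protein Slc25a46 (1.33, SE 0.13, adjusted p = 1.5e-06) were alike in size. Calr3 differed by 1.34 on the log2 scale (SE 0.27, adjusted p = 0.00073). The other 3 of the 12 leaned on single libraries. Efcab2 (1.63, SE 0.42, adjusted p = 0.0045) lost its call without input Veh replicate 1 (adjusted p = 0.054), Ms4a4a (1.58, SE 0.51, adjusted p = 0.018) without polysome Veh replicate 1 (adjusted p = 0.051) or either input library (adjusted p = 0.090 and 0.094), and the phosphatase Ptp4a1 (1.54, SE 0.39, adjusted p = 0.0042) without input Veh replicate 2 (adjusted p = 0.063). All 12 low genes kept their call with any 1 vehicle library left out.

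**Figure D1:**
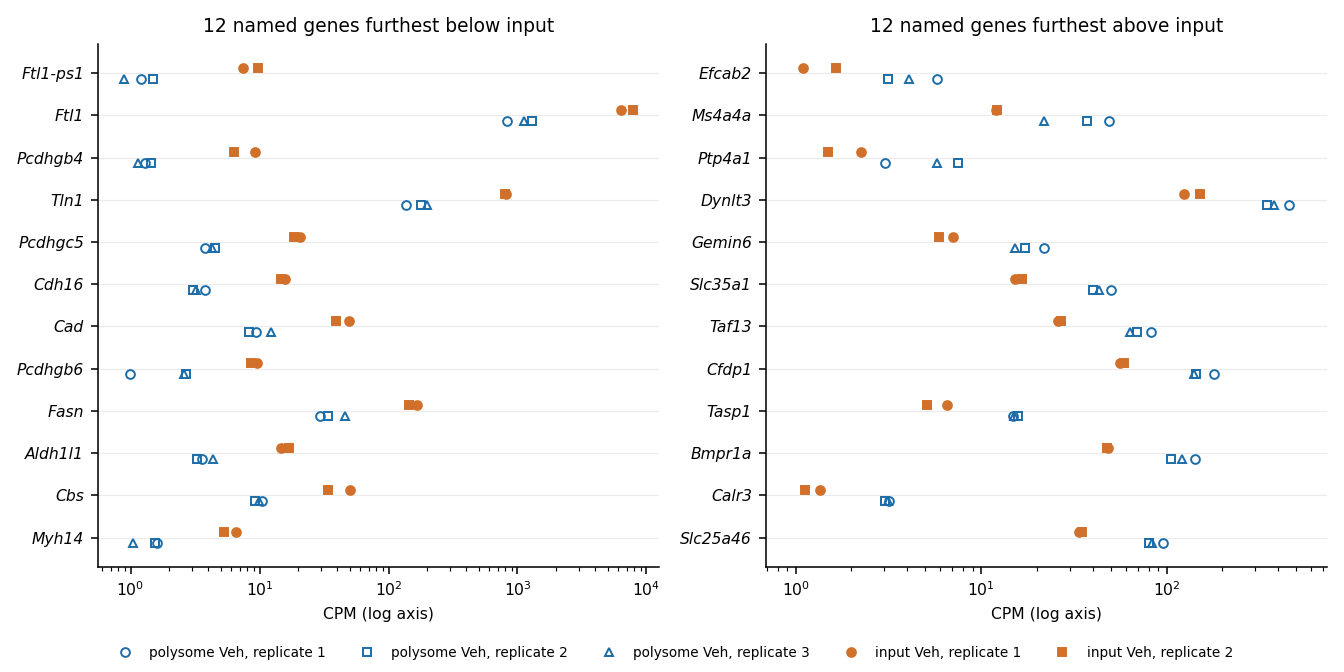
CPM (log axis) in each vehicle library for the 12 named genes furthest below input (left) and the 12 furthest above it (right). Open blue symbols are the 3 polysome libraries and filled orange symbols the 2 input libraries, with the shape giving the replicate. The groups do not overlap for any gene shown, as the choice of genes required, and Ftl1 spans 827 to 7850 CPM.

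The base composition of the transcript moved with the log2 fold change more than any other feature measured. Across 13457 nuclear protein-coding genes, Spearman's rho between the log2 fold change and the GC content of the leading transcript was -0.65. The points share the same 5 libraries and genes are not independent replicates, so this is a description. Genes whose transcript was under 40% GC had a median of 0.54 (652 genes, of which 59 were over 2-fold higher and 3 lower). The median was 0.54 at 40 to 44%, 0.38 at 44 to 48%, 0.07 at 48 to 52%, -0.35 at 52 to 56% and -0.53 at 56 to 60%, where none of 2139 genes was over 2-fold higher and 386 were lower. It fell no further at 60% and above (-0.52), where 3 of 705 genes were over 2-fold higher and 97 lower. The GC content of the 3′ UTR (rho = -0.58) and of the coding region (-0.55) followed the same order, and that of the 5′ UTR did so weakly (-0.08). The slope was not alike in the libraries. Per 10 percentage points of GC the log2 level changed by -0.55 in polysome Veh replicate 1 and by -0.22 and -0.12 in replicates 2 and 3, relative to the mean of all 11 libraries, and by 0.32 and 0.35 in the input libraries. Whether this came from the cells or from library preparation cannot be told apart in this design, since each library belongs to 1 fraction.

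Protein length moved with it as well. Genes coding for fewer than 100 residues had a median log2 fold change of 0.47 (439 genes), those for 100 to under 200 residues 0.31, 200 to under 300 residues 0.12, 300 to under 500 residues 0.00, 500 to under 1000 residues -0.15, 1000 to under 2000 residues -0.29 and 2000 residues or more -0.44 (248 genes). None of the 248 longest was over 2-fold higher and 68 were lower. The order by length was present within every class of GC content from 48 to 60%. At 56 to 60% GC the median went from 0.07 below 100 residues to -1.40 at 2000 residues or more, while at 40 to 44% it was 0.70, 0.73, 0.65, 0.56, 0.46, 0.31 and 0.17 over the same classes of length. Transcript length had a rho of -0.08, 3′ UTR length one of 0.15 and 5′ UTR length one of 0.02. Because of these trends the counts and median of the lists below are given also after the trend of every library on GC was removed, and after the trends on GC and protein length were removed, both added after the trends were seen. With GC removed, 189 genes (1.35%) were over 2-fold higher and 368 (2.62%) lower. With GC and length removed, the counts were 128 (0.912%) and 207 (1.47%). At any size the shares were 20% higher and 18.9% lower with GC removed, and 17% and 16.5% with both removed, beside 24.7% and 24.6% uncorrected. List counts below are at any size unless over 2-fold is stated. A count near these shares does not set its list apart from all genes. All 12 low genes described above stayed called under both, whereas 6 of the 12 high genes stayed called under the first and 1 (Calr3) under the second. By limma on log2(TPM + 1), Myh14, Calr3, Efcab2 and Ptp4a1 lost their calls, and Myh14 also with a pseudocount of 0.1 and with effective lengths.

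**Figure D2:**
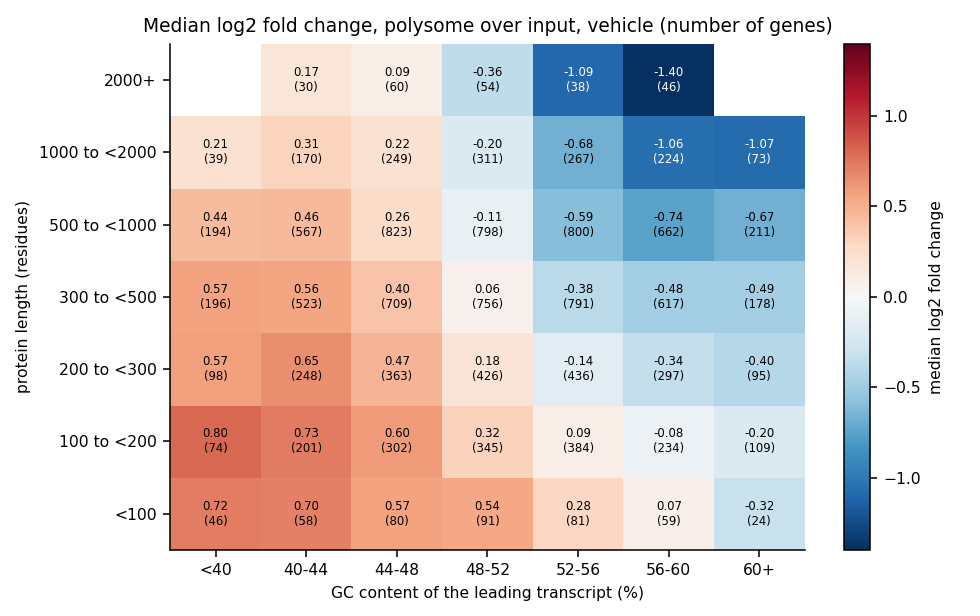
Median log2 fold change (polysome over input, Veh) of nuclear protein-coding genes by GC content of the leading transcript (x axis, percent) and protein length (y axis, residues), with the number of genes in parentheses and cells of fewer than 20 genes left blank. Values run from 0.80 below 40% GC at 100 to under 200 residues to -1.40 at 56 to 60% GC and 2000 residues or more.

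Of 12 mRNAs of iron storage, transport and sensing, 6 were lower and 3 higher at an adjusted p under 0.05, and 4 were over 2-fold lower. Of all genes tested 24.6% were lower and 24.7% higher, and 6.68% were over 2-fold lower. The list median was -0.18 at a median transcript GC content of 49.6%, with 1 higher, 6 lower and a median of -0.34 once GC was removed and 3 higher, 6 lower and a median of -0.20 once GC and length were removed. Fth1, ferritin heavy chain (chr19:9980598-9985098), measured 1159, 1405 and 1169.9 CPM in polysomes and 3801 and 4140.0 CPM in input (-1.67, SE 0.11, adjusted p = 1.1e-07). Its value stayed at -1.36 with GC removed and -1.61 with GC and length removed, and that of Ftl1 at -2.12 and -2.39. Both ferritin chains stood 3.19- and 6.56-fold below input in the measured values and code for 182 and 183 residues. Aco1, the cytosolic aconitase, which becomes iron regulatory protein 1 when its iron-sulfur cluster is lost and in whose UTRs no match was found, measured 33.5, 36.3 and 29.9 CPM against 83.4 and 82.6 (-1.32, SE 0.11, adjusted p = 4.5e-07). The iron exporter Slc40a1, although its 5′ UTR holds a match, measured 15.6, 11.8 and 10.7 CPM in polysomes and 10.3 and 9.76 CPM in input, a difference of 0.34 on the log2 scale (SE 0.18, adjusted p = 0.13). Its polysome libraries were all above input, by less than the test could separate. Tfrc, with 4 matches in its 3′ UTR, measured 88, 71 and 63.5 CPM against 71.5 and 72.2 and the groups overlapped (0.05, SE 0.13, adjusted p = 0.79). Ireb2, iron regulatory protein 2 (0.48, SE 0.12, adjusted p = 0.0042), and Fbxl5, the ubiquitin ligase subunit that removes it (0.55, SE 0.12, adjusted p = 0.0018), were higher, but at -0.02 and 0.06 with GC removed. Epas1 (0.20, SE 0.14, adjusted p = 0.27) held no match to the motif. Over the transcriptome, 5 of the 20 genes with a 5′ UTR match were over 2-fold lower (against 6.68% of all genes), among them Ftl1, Ftl1-ps1, Fth1 and Bcorl1, and none higher, and their median was 0.00. The motif was searched because ferritin mRNA was low, so the ferritin genes in this count are not independent evidence. Ftl1 and Ftl1-ps1 may also share reads. Of the 85 with a 3′ UTR match, 3 were over 2-fold lower (Ap1b1, Dvl2 and Mov10) and 1 higher.

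**Figure D3:**
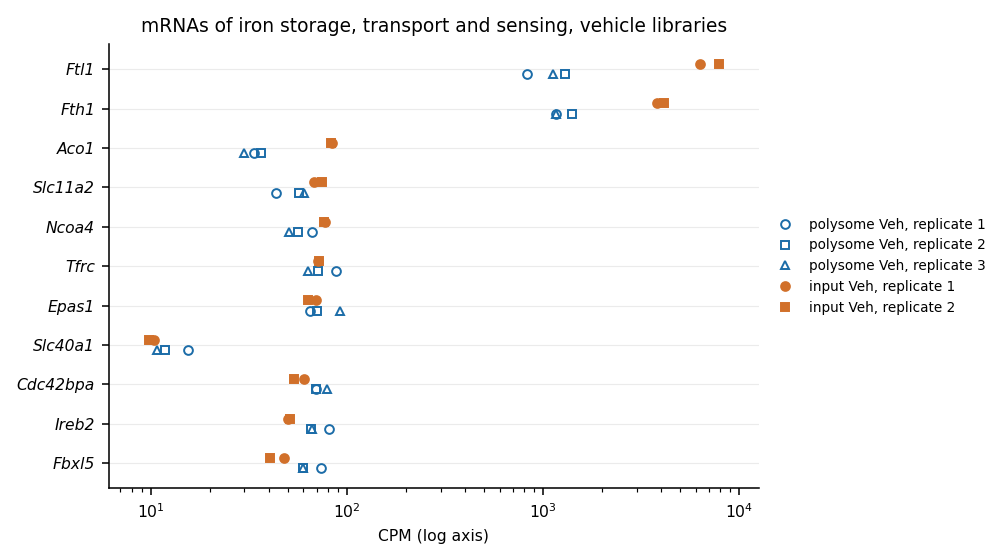
CPM (log axis) in each vehicle library for 11 of the 12 mRNAs of the iron list, ordered by log2 fold change. Open blue symbols are polysome libraries and filled orange symbols input libraries. Ftl1, Fth1 and Aco1 lie with all 3 polysome libraries far left of input, and the Tfrc libraries overlap.

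Of 86 cytosolic ribosomal protein genes tested, 26 were lower, 6 higher and 54 did not pass, beside 24.6% lower and 24.7% higher of all genes. Removing GC gave 6 higher and 21 lower, removing GC and length 0 and 41, and the median log2 fold change went from -0.24 to -0.04 and -0.31 (median GC content 51.6%). These counts leaned on single libraries, with 10 lower without input Veh replicate 2, 2 higher without polysome Veh replicate 1 or input Veh replicate 1, and 3 higher without input Veh replicate 2. Over 2-fold lower were Rpsa, the laminin receptor of the small subunit, at 604, 657 and 639 CPM in polysomes and 1723 and 1956 CPM in input (-1.54, SE 0.10, adjusted p = 1.1e-07), Rps2 (-1.52, SE 0.10, adjusted p = 1.5e-07), and the stalk proteins Rplp0 (-1.39, SE 0.12, adjusted p = 7.7e-07) and Rplp1 (-1.01, SE 0.12, adjusted p = 7.8e-06). Ribosomal protein genes have many processed pseudogenes, which can share their reads. Of 51 translation factors, 23 were lower and 15 higher. At a median GC content of 49.8%, its median was -0.25, or -0.13 with GC removed (12 higher, 22 lower) and -0.14 with GC and length removed (6 higher, 20 lower). Eef2, which moves the ribosome along the mRNA, measured 1278, 1599 and 1754 CPM against 3825 and 3969 (-1.34, SE 0.13, adjusted p = 1.4e-06), and Eif3c (-1.04, SE 0.09, adjusted p = 9.5e-07), Eif3d (-1.04, SE 0.10, adjusted p = 1.3e-06) and Eef1g (-0.96, SE 0.09, adjusted p = 1.6e-06) were lower too. The higher side was led by Eif4g2, a cap-independent relative of the scaffold eIF4G, at 1938, 1650.1 and 1706 CPM against 897 and 878 (0.99, SE 0.10, adjusted p = 2e-06), followed by Eif1a (0.97), Eif2s2 (0.93) and Eif4e, the cap-binding protein (0.74). The eIF3 subunits went from -1.04 for Eif3c through -0.02 for Eif3e to 0.83 for Eif3j1, all by log2 fold change. Of 10 other TOP mRNAs 4 were higher and 3 lower. With GC removed 2 were higher and 3 lower (median -0.02, from 0.26), and with GC and length removed 1 and 4 (median -0.18), at a median GC content of 47.3%. Vim (-0.94, SE 0.09, adjusted p = 1.2e-06) and Rack1 (-0.74, SE 0.10, adjusted p = 2.1e-05) were lower and Npm1 (0.69, SE 0.12, adjusted p = 0.0002) and Nap1l1 (0.59, SE 0.11, adjusted p = 0.00057) were higher, the latter pair at 0.17 and 0.17 with GC removed. Aminoacyl-tRNA synthetases, which charge tRNAs, lay mostly below input. Of 20 tested, 15 were lower and none higher. These genes had a median of -0.62 and a median GC content of 50.4%. After removal of GC the median was -0.61 (0 higher, 19 lower) and after that of GC and length -0.51 (0 higher, 16 lower). Aars measured 116, 151 and 152 CPM against 447 and 448 (-1.68, SE 0.11, adjusted p = 1.4e-07), and Vars (-1.74), Mars (-1.18) and Sars (-1.07) were also over 2-fold lower, whereas Hars (0.04, SE 0.10, adjusted p = 0.79) overlapped with input.

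Stress-response mRNAs and mRNAs with known uORFs were spread over both directions, with 7 of 21 higher and 9 lower. Their median, -0.21 at a GC content of 53.3%, became 0.15 with GC removed and -0.11 with GC and length removed, and the counts 9 higher and 4 lower, then 7 and 5. By limma on log2(TPM + 1) its median was 0.02. Ifrd1 measured 133, 142 and 149 CPM in polysomes and 61.1 and 71.6 CPM in input (1.09, SE 0.12, adjusted p = 4.3e-06), and Cebpg 96.6, 88.4 and 81.2 CPM against 42.9 and 45.8 (1.00, SE 0.12, adjusted p = 7.7e-06). Ddit3, the stress factor CHOP, measured 89.5, 85.6 and 83.3 CPM against 46.4 and 43.6 (0.94, SE 0.11, adjusted p = 1e-05) and stood at 1.43 with GC removed. Atf4 was at 425, 424 and 440.1 CPM against 307 and 338 (0.41, SE 0.09, adjusted p = 0.0016), and Ppp1r15b, which helps to reverse the stress block on initiation, differed by 0.50 on the log2 scale (SE 0.10, adjusted p = 0.00086). Ibtk (0.96, SE 0.11, adjusted p = 7.8e-06) and the cystine carrier Slc7a11 (0.68) were higher as well. The 9 lower genes were Sars (-1.07), Trib3 (-0.84), Sesn2 (-0.83), Asns (-0.50), Chac1 (-0.49), Ddit4 (-0.53), Herpud1 (-0.41), Eprs (-0.43) and Atf5 (-0.56). In the polyamine pathway, whose mRNAs are also under translational control by their product, 5 of 12 were higher, among them Sat1 (0.94, SE 0.13, adjusted p = 2.5e-05), Amd1 (0.90, SE 0.16, adjusted p = 0.00025), Azin1 (0.72, SE 0.10, adjusted p = 2.6e-05) and Sms (0.72, SE 0.12, adjusted p = 0.00022), and 3 lower (0 without input Veh replicate 2). The list median was 0.11 at a median transcript GC content of 54.1%, with 7 higher, 0 lower and a median of 0.34 once GC was removed and 5 higher, 0 lower and a median of 0.22 once GC and length were removed.

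Genes for entry into the secretory pathway and genes of the secreted matrix differed in direction by list median. This held before and after the corrections, which made the medians smaller in size. Genes of the translocon, the signal recognition particle and the signal peptidase, which carry nascent proteins into the endoplasmic reticulum (ER), were higher in 14 of 21 cases and lower in 2. Removing GC gave 12 higher and 2 lower, removing GC and length 8 and 2, and the median log2 fold change went from 0.62 to 0.37 and 0.18 (median GC content 45.4%). Sec11c, a catalytic subunit of the signal peptidase, measured 119, 106 and 92.5 CPM in polysomes and 44.8 and 44.7 CPM in input (1.24, SE 0.14, adjusted p = 6.1e-06), Spcs3 of the same complex 267, 227 and 207 CPM against 115 and 104 (1.09, SE 0.12, adjusted p = 3.9e-06), and Srp9 (1.00, SE 0.11, adjusted p = 5.3e-06) and Srp19 (1.02, SE 0.11, adjusted p = 5.6e-06) of the signal recognition particle were alike. Sec61a1, the long channel subunit, went the other way at 149.5, 185 and 196 CPM against 315 and 328 (-0.86, SE 0.12, adjusted p = 2.9e-05), while its small partners Sec61b (0.60) and Sec61g (0.62) were higher. Of 19 ER chaperones 6 were higher and 5 lower, near the 24.7 and 24.6% of all genes. Among the lower were Hyou1 (-1.48, SE 0.12, adjusted p = 4.5e-07), Calr (-0.85, SE 0.09, adjusted p = 4.1e-06) and P4hb (-0.82, SE 0.10, adjusted p = 1.1e-05). Dnajc3 (0.87, SE 0.11, adjusted p = 1.5e-05) was among the higher. At a median GC content of 47.6%, the list median was 0.13, or -0.14 with GC removed (4 higher, 7 lower) and -0.14 with GC and length removed (4 higher, 6 lower). Most matrix genes that passed the test were lower. Of 29 collagen genes 17 were lower and 1 higher (2 without polysome Veh replicate 1), with 14 over 2-fold lower. With GC removed 1 were higher and 16 lower (median -0.61, from -0.85), and with GC and length removed 3 and 12 (median -0.26), at a median GC content of 55.1%. Col4a2, a chain of basement membrane collagen, measured 467, 479 and 655 CPM against 2090.0 and 1772 (-1.86, SE 0.15, adjusted p = 4.7e-07). Col1a1, the main chain of fibrillar collagen, measured 1168, 1217 and 1563 CPM against 4359 and 3579.7 (-1.59, SE 0.15, adjusted p = 1.6e-06). Col6a2 (-1.99, SE 0.15, adjusted p = 3e-07), Col6a1 (-1.81, SE 0.14, adjusted p = 3.7e-07) and Col15a1 (-1.54, SE 0.11, adjusted p = 1.5e-07) were lower too, and the fibrillar Col3a1 less so at 1196, 876 and 1092 CPM against 1664 and 1304 (-0.49, SE 0.15, adjusted p = 0.011). The single gene over 2-fold higher was Col28a1, outside the naming rule. Of 38 other matrix genes 20 were lower and 1, Postn (0.63, SE 0.15, adjusted p = 0.0031), was higher (2 without polysome Veh replicate 1 or 2). These genes had a median of -0.53 and a median GC content of 52.1%. After removal of GC the median was -0.37 (2 higher, 20 lower) and after that of GC and length -0.30 (3 higher, 14 lower). Fbln2 (-1.10, SE 0.12, adjusted p = 5.7e-06), Fbln1 (-1.39), Sparc (-0.71, SE 0.09, adjusted p = 2.2e-05) and the collagen chaperone Serpinh1 (-0.72, SE 0.10, adjusted p = 3.9e-05) were lower, Serpinh1 at -0.18 with GC removed.

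Glycolysis lay below input almost throughout. Of 15 genes tested, 14 were lower, none higher and 9 over 2-fold lower. Their median, -1.02 at a GC content of 54.1%, became -0.57 with GC removed and -0.56 with GC and length removed, and the counts 0 higher and 13 lower, then 0 and 13. Pkm, the pyruvate kinase, measured 1296, 1769 and 1675 CPM in polysomes and 4936 and 5372 CPM in input (-1.71, SE 0.13, adjusted p = 3.2e-07). Gpi1 measured 386, 455 and 438 CPM against 1067 and 1109 (-1.35, SE 0.11, adjusted p = 4.5e-07) and Hk1, the hexokinase that starts the pathway, 50.7, 56.9 and 80.9 CPM against 220.2 and 208 (-1.77, SE 0.16, adjusted p = 9.7e-07). No polysome library reached its input libraries for these genes. Pfkp (-1.20, SE 0.09, adjusted p = 3.2e-07) was lower as well, and Ldha (-0.56, SE 0.09, adjusted p = 0.0001) less so. Tpi1 was the exception, at 21, 3.27 and 25 CPM against 20.7 and 8.58 (0.17, SE 0.78, adjusted p = 0.88), with both groups widely spread. Nuclear genes of oxidative phosphorylation were more often higher than lower, by small differences. Of 82 nuclear genes 34 were higher (22 without input Veh replicate 1) and 9 lower. The list median was 0.23 at a median transcript GC content of 52.2%, with 49 higher, 9 lower and a median of 0.46 once GC was removed and 27 higher, 13 lower and a median of 0.10 once GC and length were removed. Subunits of different length lay at the ends of this list. Cox6c (1.02) and Cox7b (1.02), short subunits of cytochrome oxidase, were at the higher end, and the large subunits Atp5a1 (-0.91, SE 0.08, adjusted p = 1.3e-06), Uqcrc1 (-1.02, SE 0.11, adjusted p = 4e-06), Ndufv1 (-1.02, SE 0.11, adjusted p = 4.1e-06) and Atp5b (-0.70, SE 0.08, adjusted p = 7.9e-06) were lower. The mitochondrial ribosome had 27 of 78 genes higher (13 without input Veh replicate 1) and 5 lower (3 without input Veh replicate 2), led by Mrpl18 (0.89, SE 0.13, adjusted p = 4.8e-05) and Mrpl21 (0.77, SE 0.12, adjusted p = 6.5e-05). Removing GC gave 37 higher and 6 lower, removing GC and length 20 and 15, and the median log2 fold change went from 0.21 to 0.27 and 0.05 (median GC content 51.3%). mRNAs made inside mitochondria, which are not translated by cytosolic polysomes, were present in both kinds of library. Together they held 14071.1, 12853.3 and 11078.5 CPM in polysomes and 12384.5 and 13440.4 CPM in input, and the groups overlapped. Of 13 tested, 5 were lower (3 without input Veh replicate 2) and 2 higher. At a median GC content of 37.1%, its median was -0.21, or -0.71 with GC removed (0 higher, 10 lower) and -0.90 with GC and length removed (0 higher, 9 lower). mt-Nd1 measured 821, 666 and 646 CPM against 1096 and 1273 (-0.74, SE 0.14, adjusted p = 0.00063) and mt-Nd2 399, 341 and 342 CPM against 634 and 641 (-0.82, SE 0.13, adjusted p = 0.00014). mt-Cytb lay above input at 2091, 1688 and 1692 CPM against 1105 and 1207 (0.66, SE 0.15, adjusted p = 0.0024), a call lost under both corrections, and mt-Nd3 (-1.89, SE 0.37, adjusted p = 0.00068) varied among its polysome libraries from 12.9 to 44.1 CPM.

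Lipid genes lay on both sides of input. Of 32 adipocyte and lipid genes, 11 were lower and 6 higher (3 without input Veh replicate 1, 2 without input Veh replicate 2). With GC removed 4 were higher and 7 lower (median 0.01, from -0.29), and with GC and length removed 1 and 8 (median 0.03), at a median GC content of 55.3%. Acly, which supplies acetyl-CoA for lipogenesis, measured 86.1, 88.7 and 93.4 CPM in polysomes and 185 and 167 CPM in input (-0.98, SE 0.10, adjusted p = 1.9e-06). Plin2, the coat protein of lipid droplets, measured 195, 241 and 196 CPM against 418 and 450.4 (-1.04, SE 0.11, adjusted p = 3.3e-06). Fabp4, the fatty acid carrier of adipocytes and macrophages, was above input at 162, 115 and 117 CPM against 68.3 and 65.4 (0.98, SE 0.15, adjusted p = 6.6e-05, and 0.44 with GC removed). Pparg, the target of rosiglitazone, overlapped at 11.9, 11.4 and 10.1 CPM against 11.7 and 10.2 (0.02, SE 0.15, adjusted p = 0.92). Over 2-fold lower in this list were Fasn, Plin1, Lipe and Plin2, and Retn alone was over 2-fold higher. Of the 7 adipocyte markers tested 2 were higher and 1, Plin1, lower. Plin1 was at -1.37 (adjusted p = 0.012), and at -0.79 without input Veh replicate 1. The marker median was 0.02 at a median GC content of 50.2%. It became 0.13 with GC removed (1 higher, 0 lower) and 0.11 with GC and length removed (0 higher, 0 lower). In cholesterol synthesis and uptake 11 of 21 were lower (7 without input Veh replicate 1) and 4 higher (2 without input Veh replicate 2), with Dhcr7 (-1.27, SE 0.14, adjusted p = 6.1e-06) at the lower end. These genes had a median of -0.37 and a median GC content of 50.1%. After removal of GC the median was -0.35 (2 higher, 11 lower) and after that of GC and length -0.25 (0 higher, 8 lower). Lysosomal genes were lower in 18 of 36 cases and higher in 7 (1 without input Veh replicate 1, 4 without polysome Veh replicate 1 or input Veh replicate 2), with the hydrolases Man2b1 (-1.67, SE 0.14, adjusted p = 4.5e-07), Naglu (-1.37, SE 0.14, adjusted p = 3.5e-06) and Gaa (-1.33, SE 0.14, adjusted p = 3.7e-06) and the saposin precursor Psap (-1.26, SE 0.13, adjusted p = 3.5e-06) all over 2-fold lower. Their median, -0.31 at a GC content of 51.5%, became -0.29 with GC removed and -0.25 with GC and length removed, and the counts 4 higher and 19 lower, then 4 and 19.

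**Figure D4:**
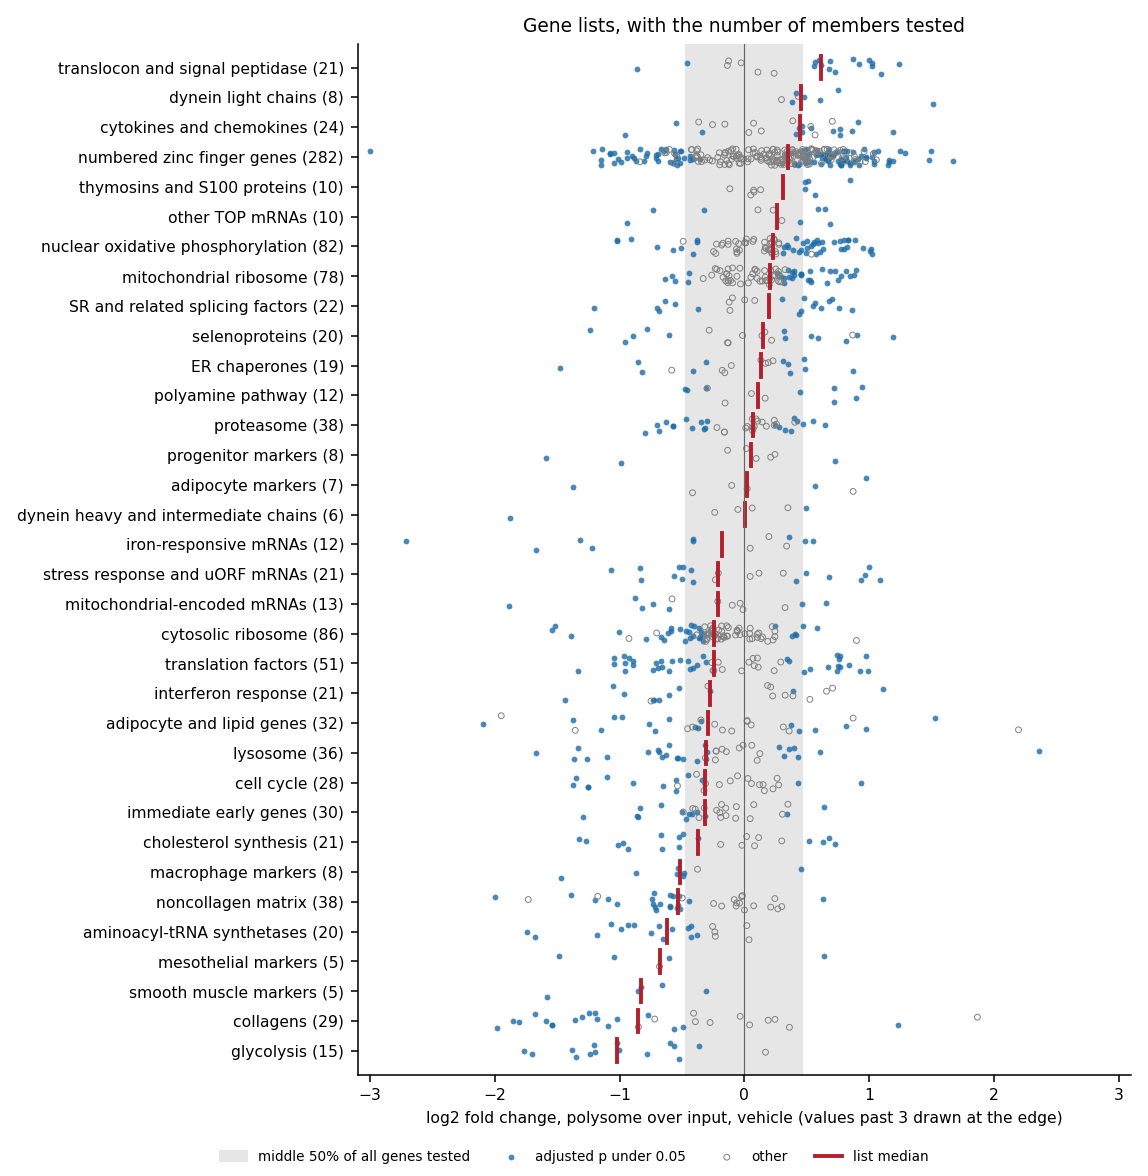
Log2 fold change (polysome over input, Veh) of each member of the gene lists with 5 or more members tested, ordered by list median (red bar). Filled blue points have an adjusted p under 0.05, open points do not, and the grey band is the middle 50% of all genes tested, with values past 3 drawn at the edge. Glycolysis (median -1.02) and collagens (-0.85) lie lowest, and the translocon and signal peptidase list (0.62) highest by these uncorrected values.

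Motor and nuclear genes also lay on both sides of input. Of 8 dynein light chains 6 were higher and none lower, with Dynll1 at 357, 291 and 291 CPM in polysomes and 179.7 and 192 CPM in input (0.75, SE 0.12, adjusted p = 9.8e-05). The list median was 0.46 at a median transcript GC content of 49.8%, with 6 higher, 0 lower and a median of 0.52 once GC was removed and 3 higher, 0 lower and a median of 0.16 once GC and length were removed. The heavy chain Dync1h1, of 4644 residues, measured 87, 102 and 117 CPM against 389.8 and 363 (-1.88, SE 0.12, adjusted p = 1.1e-07), which moved to -0.89 with GC and length removed. Of 28 cell cycle genes 11 were lower and 2 higher (1 without polysome Veh replicate 1 or input Veh replicate 2). The DNA helicase subunits Mcm7 (-1.38, SE 0.11, adjusted p = 4.5e-07), Mcm5 (-1.35, SE 0.12, adjusted p = 1e-06), Mcm2 (-1.26, SE 0.12, adjusted p = 1.9e-06) and Mcm3 (-1.10, SE 0.12, adjusted p = 3.8e-06) were all over 2-fold lower. Removing GC gave 3 higher and 17 lower, removing GC and length 2 and 13, and the median log2 fold change went from -0.32 to -0.47 and -0.34 (median GC content 48.3%). SR and related splicing factors divided into 11 higher and 6 lower of 22. At a median GC content of 44.1%, its median was 0.19, or -0.01 with GC removed (3 higher, 5 lower) and -0.12 with GC and length removed (2 higher, 6 lower). Srsf3 (0.70, SE 0.11, adjusted p = 0.0001) and Srsf1 (0.61, SE 0.10, adjusted p = 0.00017) were above input, at 0.19 and 0.10 with GC removed, and the long scaffold Srrm2 (-1.20, SE 0.13, adjusted p = 5.6e-06) was below. Numbered zinc finger genes were higher in 78 of 282 cases and lower in 42, beside 24.7 and 24.6% of all genes, counts that went to 46 higher without input Veh replicate 1, and to 51 higher and 25 lower without input Veh replicate 2. With GC removed 30 were higher and 22 lower (median 0.10, from 0.35), and with GC and length removed 44 and 14 (median 0.16), at a median GC content of 45.4%. Zfp146 (1.24, SE 0.14, adjusted p = 5.6e-06) was over 2-fold higher and Zfp703 (-1.15, SE 0.15, adjusted p = 2.1e-05) over 2-fold lower. Of 20 selenoprotein mRNAs 7 were higher and 5 lower, beside 24.7 and 24.6% of all genes. Selenot (1.19, SE 0.12, adjusted p = 2.3e-06) and Selenop (0.90, SE 0.13, adjusted p = 6.5e-05) were higher and Selenow (-1.24, SE 0.16, adjusted p = 1.6e-05) lower. These genes had a median of 0.15 and a median GC content of 53.0%. After removal of GC the median was 0.34 (10 higher, 5 lower) and after that of GC and length 0.12 (6 higher, 3 lower).

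Of 24 cytokine and chemokine genes 11 were higher (7 without input Veh replicate 1) and 3 lower (1 without input Veh replicate 2). Their median, 0.45 at a GC content of 45.5%, became 0.06 with GC removed and -0.14 with GC and length removed, and the counts 6 higher and 0 lower, then 1 and 3. Ccl7 measured 229, 178 and 185 CPM in polysomes and 87.4 and 85.2 CPM in input (1.19, SE 0.14, adjusted p = 6.7e-06), Ccl2 219, 179.8 and 183 CPM against 111 and 117 (0.77, SE 0.12, adjusted p = 0.00011) and Il6 27.1, 20.9 and 21.8 CPM against 10.9 and 14.7 (0.86, SE 0.15, adjusted p = 0.00031), with Ccl2 at -0.047 once GC and length were removed. None of the polysome libraries of these 3 was below input. Tnf was at 1.82, 5.09 and 3.56 CPM against 4.96 and 8.64 (-0.96, SE 0.33, adjusted p = 0.026) with overlapping groups. Of 21 interferon-response genes 9 were lower (5 without input Veh replicate 2) and 2 higher (1 without polysome Veh replicate 2 or input Veh replicate 1), with Irf9 (-0.73, SE 0.12, adjusted p = 0.00017) lower and Ifit2 (1.11, SE 0.17, adjusted p = 7.8e-05) higher. The list median was -0.28 at a median transcript GC content of 50.0%, with 2 higher, 7 lower and a median of -0.30 once GC was removed and 2 higher, 7 lower and a median of -0.30 once GC and length were removed. Of 8 macrophage markers 6 were lower (3 without input Veh replicate 2) and 1 higher. Removing GC gave 0 higher and 4 lower, removing GC and length 0 and 5, and the median log2 fold change went from -0.51 to -0.45 and -0.44 (median GC content 52.7%). The receptor Csf1r of macrophages measured 181, 260.0 and 237 CPM against 581 and 673 (-1.47, SE 0.13, adjusted p = 1e-06), and Adgre1, the gene for F4/80, 336, 364 and 305 CPM against 450.0 and 494 (-0.49, SE 0.10, adjusted p = 0.00085). The lysozyme gene Lyz2 of the same cells was the higher one (0.45, SE 0.15, adjusted p = 0.021), a call lost without polysome Veh replicate 1 (adjusted p = 0.086), input Veh replicate 1 (adjusted p = 0.14) or input Veh replicate 2 (adjusted p = 0.056) and under both corrections. All 5 smooth muscle markers tested were lower, among them Acta2 at 3989, 3680.3 and 4202 CPM against 6410.2 and 6116 (-0.66, SE 0.10, adjusted p = 9.8e-05) and Des at 32.1, 41.4 and 50 CPM against 119.6 and 127 (-1.58, SE 0.16, adjusted p = 2.4e-06). At a median GC content of 53.1%, its median was -0.83, or -0.56 with GC removed (0 higher, 4 lower) and -0.57 with GC and length removed (0 higher, 4 lower). Of 8 progenitor markers, Col1a1 and Pi16 (-0.99, SE 0.20, adjusted p = 0.00093) were lower and Ly6a (0.72, SE 0.16, adjusted p = 0.0013) higher. Of all genes 24.6% were lower and 24.7% higher. The median of the progenitor list was 0.06 at a median GC content of 47.6%. It became -0.30 with GC removed (1 higher, 3 lower) and -0.35 with GC and length removed (0 higher, 2 lower), where the call of Ly6a was lost. Endothelial, neutrophil and lymphocyte markers were scarce, with 3, 2 and 1 genes tested, and no erythroid marker passed the filter on low counts.

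Transcripts annotated as targets of nonsense-mediated decay made up a larger share of polysome reads than of input reads. Their share was 1.48, 1.44 and 1.45% in the polysome libraries and 1.23 and 1.27% in the input libraries, with no overlap. The difference was 0.209 percentage points (exact permutation test, two-sided p = 0.2, the smallest that 2 against 3 libraries allow). Of 34654 transcripts tested, 989 (2.85%) were over 2-fold higher and 1248 (3.6%) lower (6.46% together). The class of nonsense-mediated decay had 66 of 2409 higher and 22 lower with a median log2 fold change of 0.26. Retained-intron transcripts had 54 of 3560 higher and 111 lower with a median of -0.18, and protein-coding ones 789 of 25931 higher and 1071 lower with a median of 0.05. The share of reads in retained introns nevertheless was 1.53, 1.50 and 1.51% in polysomes and 1.48 and 1.48% in input, with no overlap (exact permutation test, two-sided p = 0.2). By share of TPM the groups overlapped for this class. Protein-coding transcripts held 95.1 to 95.2% of polysome reads and 95.3 to 95.4% of input reads, but by share of TPM they were higher in polysomes, by 0.182 percentage points. The count of higher transcripts depended on polysome Veh replicate 1, without which 536 were higher.

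Some genes had isoforms that differed in direction or in the size of the difference. Vim-204, annotated as a retained intron of vimentin, measured 0.52, 0.794 and 1.67 CPM in polysomes and 94.3 and 32.4 CPM in input (log2 fold change -5.94, adjusted p = 0.00036), and Vim-206, annotated as coding, 4.22, 3.04 and 4.18 CPM against 142 and 96.4 (-4.91, adjusted p = 0.00017), while Vim-203, another retained intron, was above input (0.83, adjusted p = 0.019). Slc25a4-202, a retained intron of the ADP/ATP carrier, measured 0.573, 3.04 and 0 CPM against 22.3 and 22.6 (-4.14, adjusted p = 0.027), and the coding form Slc25a4-201 was higher (0.39, adjusted p = 0.0092). Every polysome library of these 3 was below every input library. Trappc9-202 (-3.31, adjusted p = 0.0057), Anpep-202 (-3.71, adjusted p = 0.016) and Eef1a1-207 (-3.46, adjusted p = 0.041) were the other low isoforms by the same rule. The isoforms set beside them were Trappc9-205 (-0.43), Anpep-206 (1.54) and Eef1a1-201 (-0.37), none at an adjusted p under 0.05. Eef1a1-207 was spread in input, at 129 and 30.1 CPM. The 6 at the high end, Asph-211, Osbpl9-214, Jak2-204, Ap2a1-202, Eif4g3-212 and Tkt-208, were estimated at 0 in both input libraries, so no fold is given. Jak2-204, for example, measured 28.5, 24.7 and 39.3 CPM in polysomes, while Jak2-201 had a log2 fold change of -0.09, adjusted p = 0.99. The division of reads between overlapping isoforms is itself an estimate whose error the deposited values do not carry, and a 0 can be a failed estimate.

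The same comparison in the Rosi libraries gave the same sign for most of these genes. The libraries are other cultures, while the fit and its spread were shared. The trends with composition were present under Rosi too. Spearman's rho of the log2 fold change was -0.68 with GC content and -0.32 with protein length, against -0.65 and -0.30 under Veh. What part of the shared sign went with these trends was not tested, and the share of same sign over all genes is not given here. Of the 420 genes over 2-fold higher under Veh, 409 had the same sign under Rosi and 265 (63.1%) were over 2-fold higher there, where 911 genes (6.49%) were so called. Of the 938 lower genes, 928 had the same sign and 522 (55.7%) were over 2-fold lower, among 682 (4.86%). Ftl1 had a log2 fold change of -2.71 under Veh and -3.08 under Rosi, Fth1 -1.67 and -1.89, Tln1 -2.24 and -1.84, and Dynlt3 1.51 and 2.06. Ptp4a1 was the furthest apart of the 12 high genes, at 1.54 and 0.24. Mitochondrial mRNAs had a list median of -0.21 under Veh and -0.83 under Rosi, with no test of that difference. The direct test of the difference between the 2 treatments, the interaction of fraction and treatment, called no gene in edgeR (961 genes at an unadjusted p under 0.05), and 16 genes at an adjusted p under 0.05 in DESeq2. Without polysome Veh replicate 1 edgeR gave 24 genes.

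**Figure D5:**
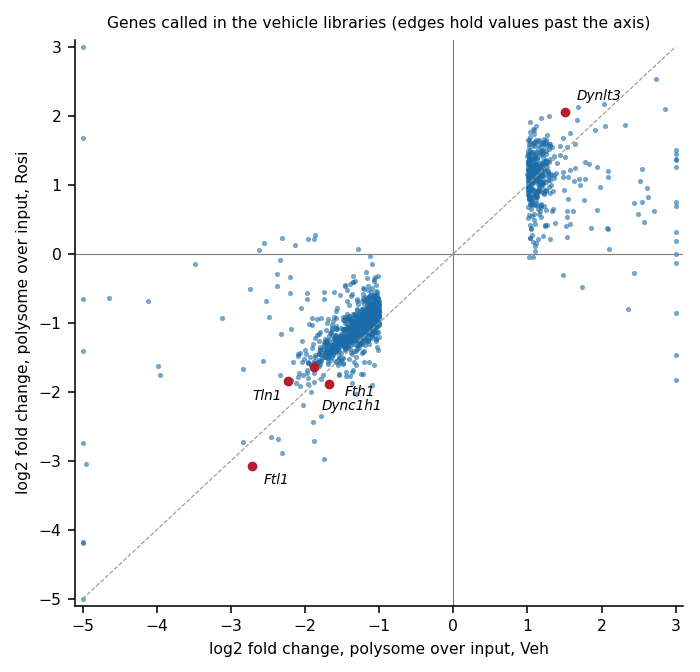
Log2 fold change of polysome over input under Veh (x axis) and Rosi (y axis) for the 1358 genes over 2-fold different under Veh, with the dashed line at equal values and named genes in red, and with values past an axis drawn at its edge. Of 420 genes to the right of 0 and 938 to the left, 409 and 928 lie on the same side under Rosi.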

How the data were processed

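RNA was sequenced from poly(A) libraries of polysome fractions and of total RNA. The authors ran bcl2fastq 2.17, FastQC, Salmon and DESeq2 against mm10, and deposited for each library the estimated counts, TPM and effective lengths of 117135 transcripts, with the other versions and the strand setting not given in the sources used here. Estimated counts carry no error of assignment, and overlapping or antisense genes may share reads. The deposited estimated counts were summed over 115973 transcripts matched to GENCODE M21 (35523 genes), and 1162 unmatched transcripts (0.381 to 0.464% of reads) were left out. Of the nuclear noncoding RNAs listed, only Tug1 had a transcript among those matched. It was higher in polysomes at an adjusted p under 0.05 (log2 fold change 0.94). No snoRNA host noncoding RNA listed had one. Malat1 and Neat1 were not analysed here. Rounded sums were tested with edgeR 4.0.16 (R 4.3.3) by its quasi-likelihood F test over 11 libraries in 4 groups, after filterByExpr and TMM, with Benjamini-Hochberg adjustment over 14042 genes. A call needed an adjusted p under 0.05 and over 2-fold. Each SE was taken as the size of the log2 fold change divided by the root of its F statistic. The steps were tested on simulated data.

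Alternatives were DESeq2 1.42.0, limma 3.58.1 on the deposited TPM, an offset from the deposited effective length (a score in bases), other factors and filters, leaving out each library, and corrections for GC and protein length added after the data were seen. Named were the 12 highest and 12 lowest named genes and up to 4 members of smallest p per list, with further members given as examples chosen after their values were seen. The 6 highest and 6 lowest transcripts were named where another transcript of the gene moved the other way or by under 0.5. The lists and the comparison were chosen with earlier results of these data known. Depth, at 17446517 to 20963871 estimated reads, was alike in the groups, and precision was limited by the 5 libraries. Some genes that these rules would name are not reported here.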

Additional observations from a re-analysis of the deposited data

How the results depend on the processing

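The number of genes over 2-fold apart (420 higher, 938 lower) depended on the composition trends and on a single library. Leaving out 1 library gave 236 to 537 higher and 759 to 1168 lower. Higher genes numbered 820 without TMM factors, 189 with GC removed and 128 with GC and length removed, and lower genes numbered 458 by limma on log2(TPM + 1), 368 with GC removed and 207 with both removed. Other scalings, filters and DESeq2 stayed within 1.5 times of these counts. The causes were not tested. For transcripts (989 higher, 1248 lower), the vehicle libraries alone gave 634 higher, and leaving out 1 library gave 536 to 1021 higher. By share of TPM instead of reads, the difference between polysome and input in percentage points was 0.182 for protein-coding, 0.119 for nonsense-mediated decay, -0.0247 for retained-intron and -0.146 for processed transcripts. The rho with length was -0.069 for transcript length weighted by TPM, against -0.30 for protein length. Lists with a median above 0 numbered 16, and 10 with GC and length removed. Interaction genes numbered 0, but 16 by DESeq2, 107 without the count filter, 24 without polysome Veh replicate 1, 2 with all 12 libraries, 9 with GC removed and 12 with both removed.

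With the replicate number as a block, the counts were 517 higher and 1171 lower genes when the repeated input library was taken as replicate 2, and 490 and 1051 when taken as replicate 3. For transcripts they were 760 and 966, and 564 and 775. The deviations of same-numbered libraries from their group means correlated at 0.0841 and 0.114 under Veh and -0.0631, -0.0265 and -0.0718 under Rosi. The paper describes input as RNA taken before fractionation, so polysome and input RNA may come from the same cultures. Under Veh the check cannot decide this, since the value with one input library is the negative of that with the other (0.0841 and -0.0841). The main fit used no pairing.

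Some named genes changed sign. With GC and length removed, Dync2li1 was at -0.042, Mrps33 -0.014, Ccl2 -0.047, Srsf3 -0.078, Srsf1 -0.14, Tmsb4x -0.22 and Spink8 -0.27. With GC removed and with both removed, Cebpa was at 0.13 and 0.10, Dcn -0.28 and -0.33, Ptprc -0.45 and -0.18, Tfrc -0.48 and -0.29, and Slc40a1 -0.16 and -0.071. Tfrc was at -0.045 and -0.047 with TPM pseudocounts of 1 and 0.1 and at -0.12 with effective lengths, Csf3r at -0.081 with the replicate block, and S100a8 at 0.024 without factors and 0.049 with the replicate block. With 1 library left out, Tfrc ran from -0.10 to 0.15, Dcn from -0.0045 to 0.35, Csf3r from -0.13 to 0.61, Kdr from -0.75 to 0.25 and S100a8 from -0.37 to 0.062.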
